A study of Mus musculus with 4 samples.

Results

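The nuclear genes for the subunits of oxidative phosphorylation were followed in tumour cells sorted by aldehyde dehydrogenase (ALDH) activity at 2 times of day. Members were taken by gene name on the array: the Nduf genes of the a, b, c, s and v series, Sdha to Sdhd, the Uqcr genes, Cox4 to Cox8 and the Atp5 genes, without pseudogenes. Of 83 such names, 81 passed a filter that asks for a signal well above background on 2 or more of the 4 arrays, as did 23520 gene names and other named features in all. By complex, 35 were counted in complex I, 4 in complex II, 8 in complex III, 17 in complex IV and 17 in complex V. Cox8b and Cox8c, tissue-restricted forms of a complex IV subunit, were well above background on 0 arrays and did not pass the filter. Atp5s, well above background on 2 arrays, and Ndufa4l2, on 3, lay just inside it, and the other 79 were well above background on all 4.

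Oxidative phosphorylation passes electrons from NADH (through complex I) and from succinate (through complex II) to ubiquinone, then through complex III and cytochrome c to complex IV, which reduces oxygen. Complexes I, III and IV pump protons, and complex V, the ATP synthase, uses the returning protons to make ATP. Complexes I, III, IV and V are built from both nuclear and mitochondrially encoded subunits, whereas every subunit of complex II is nuclear. Complex II is also an enzyme of the citric acid cycle. Tumour cells use this machinery to varying degrees beside glycolysis, and high ALDH activity is widely used to enrich tumour-initiating cells in breast tumour models.

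The 4 groups, with 1 array each, were ALDH-high cells at zeitgeber time (ZT) 12, ALDH-low cells at ZT12, ALDH-high cells at ZT0 and ALDH-low cells at ZT0. Zeitgeber time counts hours from the start of the light phase. All cells came from tumours that 4T1 cells, a mouse mammary carcinoma line, had formed in untreated BALB/C mice, and were sorted by ALDEFLUOR staining into high and low activity. The labels do not give the age of the mice, how many mice gave each fraction, or a gate against other cell types. Because no group had a replicate, a difference between 2 arrays has no error of its own here. Levels are given as scaled signals: the log2 of the processed intensity minus the 75th percentile of its array, with the probe of highest mean standing for a gene. Levels of different genes come from different probes and are not set against each other.

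In most red cell and immune markers the arrays paired across ALDH arm and time: ZT12 ALDH-high resembled ZT0 ALDH-low, and ZT12 ALDH-low resembled ZT0 ALDH-high. By the sum of the epithelial markers, ZT12 ALDH-low lay nearer to ZT12 ALDH-high than to ZT0 ALDH-high. Whether the ALDH labels of 1 time were exchanged cannot be checked with these data, and every ALDH and time difference below rests on the labels as given. The ZT12 ALDH-high and ZT0 ALDH-low arrays, both at position 1_1 of their slides, carried high red cell, lymphocyte and macrophage markers. The other pair, at position 1_2, was high in 9 of 12 neutrophil markers. Sums over a list were taken on the linear scale and are given as log2, so the brightest markers weigh most. Over 9 measured red cell markers the sum was 8.93 in ZT12 ALDH-high against 2.82 in ZT12 ALDH-low cells, and 2.60 in ZT0 ALDH-high against 10.5 in ZT0 ALDH-low cells. The 12 epithelial markers summed to 6.59 in ZT12 ALDH-high against 6.45 in ZT12 ALDH-low cells, and to 3.63 in ZT0 ALDH-high against 7.63 in ZT0 ALDH-low cells, so the labelled tumour cells were least marked on the ZT0 ALDH-high array. Of these 12, 11 were higher on both 1_1 arrays, against 47.9% of all features, with median differences of 0.61 at ZT12 and −3.41 at ZT0. For 12 neutrophil markers, the median difference between ALDH-high and ALDH-low was −2.53 at ZT12 and 3.49 at ZT0, with 9 of 12 higher on both 1_2 arrays (all features 32.4%). At ZT12, 3 of the 12 were higher in ALDH-high cells. Their sum did not follow position: 11.6 in ZT12 ALDH-high against 11.1 in ZT12 ALDH-low cells, and 11.8 in ZT0 ALDH-high against 11.2 in ZT0 ALDH-low cells. For 12 T and NK cell markers it was 5.12 and −3.37 (11 of 12 higher on both 1_1 arrays), for 7 B cell markers 5.59 and −2.48 (6 of 7), and for 10 macrophage markers 1.86 and −2.19 (8 of 10). Of the 9 red cell markers, 7 were well above background in ZT12 ALDH-low and 6 in ZT0 ALDH-high cells, where T and NK cell markers counted 9 and 10 of 12 and B cell markers 6 and 6 of 7; on the other arrays all were. Every measured marker of the epithelial, neutrophil and macrophage lists was well above background on all 4 arrays, except 1 epithelial marker on the ZT0 ALDH-high array. The slope of the spike-in controls also followed position: 0.789 in ZT12 ALDH-high and 0.873 in ZT0 ALDH-low cells, against 0.944 in ZT12 ALDH-low and 0.956 in ZT0 ALDH-high cells. The part of these cell mixtures and of the position in the results below was not tested, and in sorted fractions fewer cells of a type and less RNA per cell cannot be told apart.

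With 75th percentile scaling the subunit genes varied less between the arrays than most features, and the ALDH difference of 65 of 81 members (80.2%) had opposite signs at the 2 times, near the background of 84.2% of all features. At ZT12, 6 of 81 members were higher in ALDH-high cells by 2-fold or more and 0 were lower by as much, when 32.2% and 17.9% of all features were. At ZT0, 0 members were higher by 2-fold or more and 12 lower, against 20.5% and 31.5% of all features. The members' median difference was 0.22 log2 units at ZT12 and −0.33 at ZT0, beside 0.30 and −0.32 for all features. The range over the 4 arrays was under 0.5 log2 units for 34 members (42.0%), against 8.10% of all features. Its median was 0.55 for the members and 1.53 for all features. Among the features with a mean scaled signal of at least 3, which include 60 of the members, the median range was 0.53 for the members and 1.29 for all. Of those 60 members, 3 were higher and 0 lower by 2-fold or more at ZT12, against 14% and 29.8% of all features at that level, and 0 were higher and 7 lower at ZT0, against 35.9% and 18.6%.

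**Figure D1:**
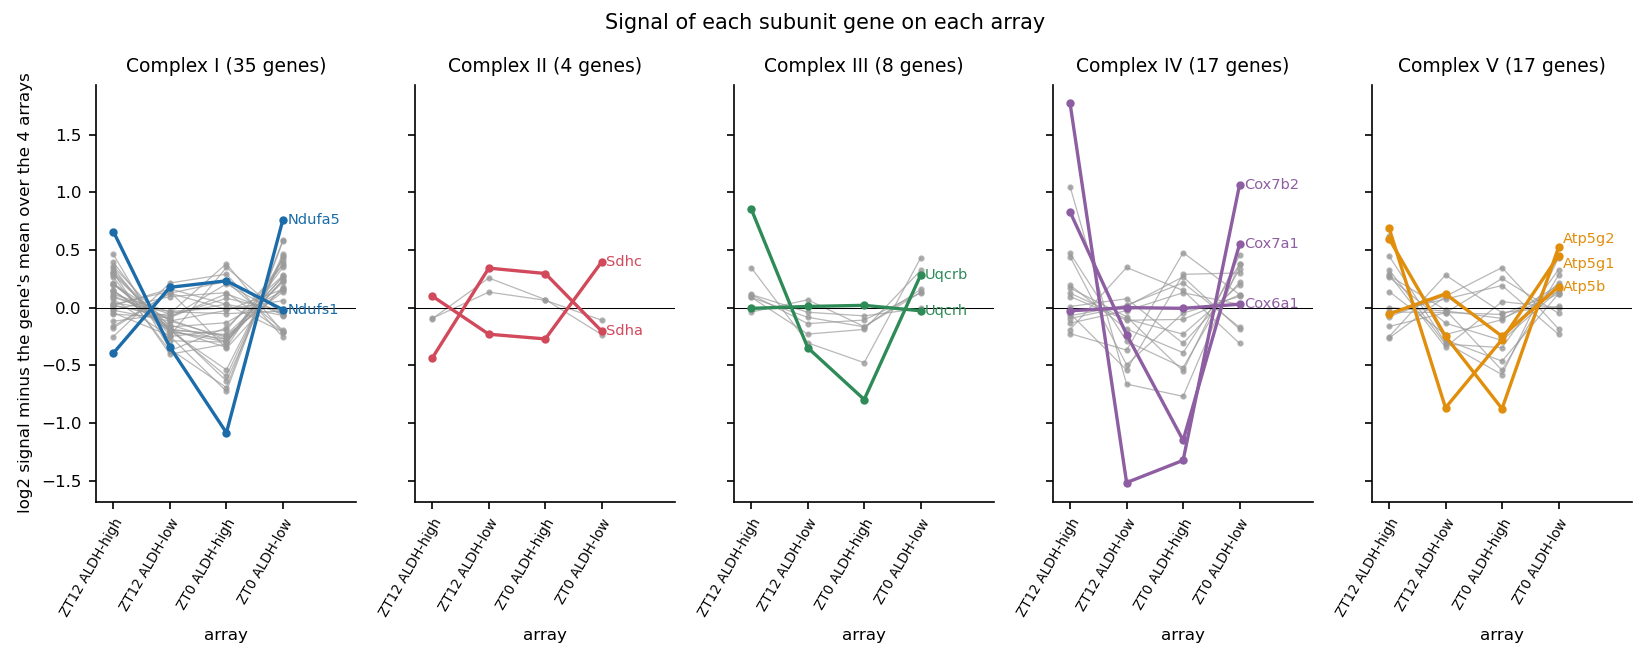
Scaled log2 signal of each subunit gene minus its own mean over the 4 arrays (y axis) on each array (x axis), 1 line per gene and 1 panel per complex, with named genes in colour. Most lines stay close to 0, Cox7b2, Cox7a1, Ndufa5 and Uqcrb are high on the ZT12 ALDH-high and ZT0 ALDH-low arrays, and Sdha runs the other way.

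Between times, within ALDH-high cells, 10 members were higher at ZT12 than at ZT0 by 2-fold or more and 0 were lower, against 32.5% and 20.8% of all features. One of the 10, Atp5s, was not well above background on either array. Within ALDH-low cells, 0 were higher at ZT12 by that much and 4 lower, against 17.5% and 32.7% of all features. At a mean scaled signal of at least 3, the counts were 5 higher and 0 lower in ALDH-high cells (all features 22.1% and 33.9%) and 0 higher and 2 lower in ALDH-low cells (32.2% and 12.7%). These comparisons use the same 4 arrays as those of ALDH and add no further samples, and time cannot be told apart from slide, since each slide held the arrays of 1 time. Members with both 1_1 arrays above both 1_2 arrays numbered 47 (58.0%; all features 47.9%), and 16 had the opposite order (19.8%; all features 32.4%). With array median scaling the order turned: 4 members were higher on both 1_1 arrays and 46 on both 1_2 arrays, against 26.9% and 46.5% of all features.

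The direction of these medians depends on how the arrays are scaled. With the array median in place of the 75th percentile, the median of all features became −0.57 at ZT12 and 0.17 at ZT0, and the members' median −0.65 and 0.16. In that setting 1 member was higher and 13 lower by 2-fold or more at ZT12, against 20.2% and 38.8% of all features. With quantile normalization the members' median was 0.49 at ZT12 and −0.79 at ZT0, beside 0.09 and −0.19 for all features. Members lower by 2-fold or more at ZT0 then numbered 29 of 81, against 29.2% of all features. With normexp and quantile normalization they also numbered 29, against 17.0%, so the share of lower members at ZT0 was not under the background. In both settings 0 members were higher at ZT0, against 20.4% and 12.7% of all features. At ZT12 with quantile normalization 10 were higher and 0 lower, against 26.1% and 20.4%. The range over the arrays was taken with 75th percentile scaling only. Distances between groups of members on one array pair do not move with a scaling constant. The signs, counts and single values below are those of 75th percentile scaling and do move with it.

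**Figure D2:**
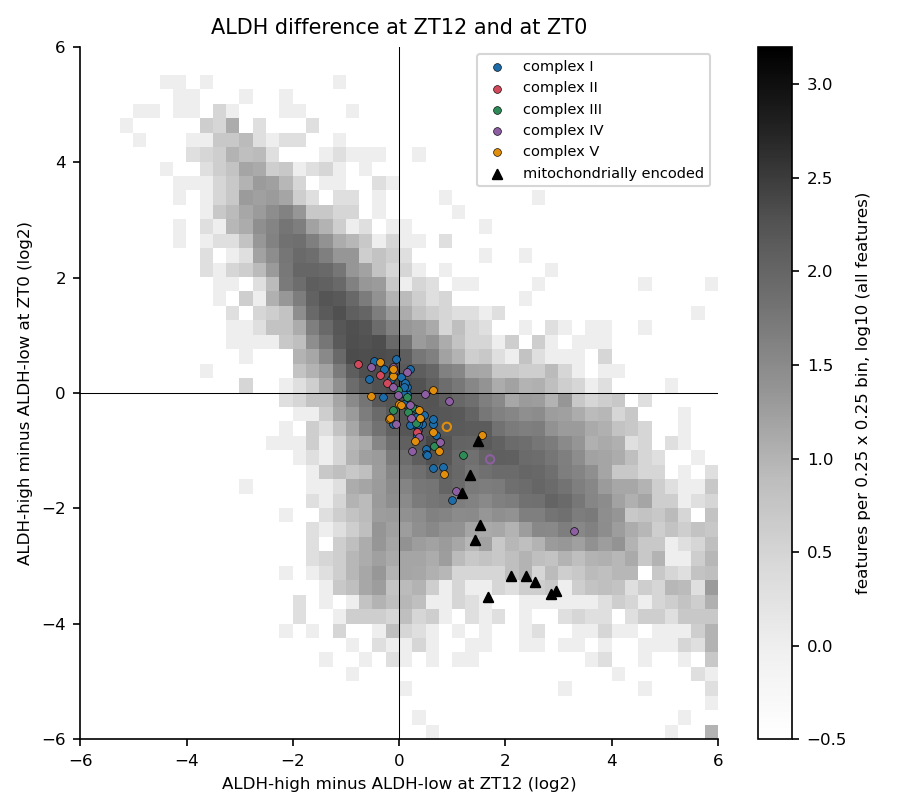
Difference between ALDH-high and ALDH-low cells at ZT12 (x axis, log2) and at ZT0 (y axis, log2). Grey squares count all 23520 features, those beyond the axes in the edge squares, coloured points are the 81 nuclear subunit genes by complex (open points were not well above background on all 4 arrays), and triangles the 11 mitochondrially encoded subunits. The nuclear genes lie near the centre and the mitochondrially encoded ones at the lower right.

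Complex I takes electrons from NADH at its N module, passes them to ubiquinone at its Q module and pumps protons in its membrane arm. The Q module genes differed most: 6 of 6 were higher in ALDH-high than in ALDH-low cells at ZT12 (median 0.58) and 6 of 6 lower at ZT0 (median −0.91), but with array median scaling 1 of 6 was higher at ZT12 and 5 of 6 lower at ZT0. The 10 N module genes had medians of 0.13 and −0.01, and the 19 membrane arm genes 0.32 and −0.38. The Q module stood above the N module by 0.46 at ZT12 and below it by 0.90 at ZT0 (a difference of −0.90), and kept both signs in 9 of 9 other processing settings. Of these, array median scaling and the changes of background filter could not move the distance. The series table is itself quantile normalized, so it nearly repeats another setting.

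Ndufa5, an accessory subunit counted in the Q module, had the widest swing of complex I. Its scaled signal was 3.97 in ZT12 ALDH-high against 2.96 in ZT12 ALDH-low cells, and 2.22 in ZT0 ALDH-high against 4.07 in ZT0 ALDH-low cells. It was thus high on the ZT12 ALDH-high and ZT0 ALDH-low arrays, with differences of 1.0 and −1.85, and its second probe gave 1.17 and −1.95. Ndufa9, a Q module subunit, was 2.0 in ZT12 ALDH-high against 1.36 in ZT12 ALDH-low cells, and 0.88 in ZT0 ALDH-high against 2.18 in ZT0 ALDH-low cells. Ndufs3, a core subunit of the module, gave 3.81 against 3.28 at ZT12 and 2.81 against 3.89 at ZT0, again ALDH-high first, and Ndufs8, which carries iron-sulphur clusters, 3.96 against 3.26 and 3.35 against 4.08. The low array for these 3 genes was ZT0 ALDH-high or, for Ndufs8, ZT12 ALDH-low. Ndufs7, another core subunit of the module, differed by 0.31 and −0.28.

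In the N module, Ndufs1, the largest iron-sulphur subunit, went the other way, with 2.27 in ZT12 ALDH-high against 2.84 in ZT12 ALDH-low cells, and 2.90 in ZT0 ALDH-high against 2.65 in ZT0 ALDH-low cells. Its ZT12 ALDH-high array was the low one. A second Ndufs1 probe, of another part of the gene, gave 2.05 at ZT12 and −1.24 at ZT0, so the direction for this gene depends on the probe. Ndufv1, which binds NADH and FMN, differed by −0.11 and −0.53, and its partner Ndufv2 by 0.35 and −0.54. Ndufa6, an accessory subunit, stayed within a range of 0.07 over the 4 arrays. In the membrane arm the highest value at ZT12 and the lowest at ZT0 were those of Ndufc2 (0.82 and −1.28), and the highest at ZT0 that of Ndufa3 (0.60). Ndufa8 was the highest complex I gene for time in ALDH-low cells (0.47), where Ndufa5 was the lowest (−1.11). In ALDH-high cells the highest for time was Ndufa5 (1.75) and the lowest Ndufs1 (−0.63).

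Complex II, succinate dehydrogenase, had a median apart from that of the other members, with 3 of its 4 genes higher on both 1_2 arrays, as were 13 of the other 77 and 32.4% of all features. Sdha, the flavoprotein that oxidises succinate, had a scaled signal of 2.59 in ZT12 ALDH-high against 3.37 in ZT12 ALDH-low cells, and 3.33 in ZT0 ALDH-high against 2.82 in ZT0 ALDH-low cells. Sdhb, the iron-sulphur subunit, was 4.65 against 4.88 at ZT12 and 4.81 against 4.63 at ZT0, ALDH-high first, and the membrane anchor Sdhd 3.93 against 4.28 and 4.10 against 3.79. All 3 were thus lower in ALDH-high cells at ZT12 and higher in them at ZT0. The other anchor, Sdhc, had 2.20 in ZT12 ALDH-high against 1.87 in ZT12 ALDH-low cells, and 1.82 in ZT0 ALDH-high against 2.49 in ZT0 ALDH-low cells, the order seen in most other members. The median of complex II was −0.29 at ZT12 and 0.24 at ZT0, and stood −0.54 and 0.62 from the median of the other 77 members. With array median scaling both medians were below 0 at ZT12 (−1.16 for complex II and −0.62 for the others) and above 0 at ZT0 (0.72 and 0.10), so the opposite signs did not hold. The distance itself cannot move with such a scaling constant. Over 9 other settings that distance ran between −0.58 and −0.42 at ZT12 and between 0.45 and 0.68 at ZT0. Sdha had 4 probes past the filter: besides the one used, 2 gave −0.70 and 0.44, and −0.72 and 0.36, and the last gave 0.59 and −0.79. For the time comparisons the complex II median was −0.16 in ALDH-high and 0.37 in ALDH-low cells, where the other members had 0.27 and −0.30.

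The probes read short stretches of the transcripts, and those shown here, placed in mm9 by the array files, stand for the complexes compared: Ndufs8 (chr19:3908949-3909008, minus strand) for the Q module, the second probe of Sdhb (chr4:140522514-140527081, plus strand) for complex II, the second probe of Uqcrb (chr13:67001691-67001750, minus strand) for complex III, Cox4i1 (chr8:123197924-123197983, plus strand) for complex IV and a second probe of Atp5f1 (chr3:105745973-105746655, minus strand) for complex V. The levels given for Sdhb, Uqcrb and Atp5f1 come from another, brighter probe of the gene; the probes printed gave −0.28 at ZT12 and 0.42 at ZT0 for Sdhb, and −0.41 and 0.48 for Atp5f1, the direction of the brighter ones. For Atp5f1 that is not the direction of most of complex V, in which 10 of 17 genes were higher on both 1_1 arrays and 3 on both 1_2 arrays. The spans of Sdhb and Atp5f1 are longer than the 60 bases of a probe. Exon and UTR positions were not analysed here.
Ndufs8: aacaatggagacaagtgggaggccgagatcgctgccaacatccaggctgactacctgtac
Sdhb: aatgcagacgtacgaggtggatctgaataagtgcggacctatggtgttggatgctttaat
Uqcrb: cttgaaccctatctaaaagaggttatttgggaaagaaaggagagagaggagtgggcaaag
Cox4i1: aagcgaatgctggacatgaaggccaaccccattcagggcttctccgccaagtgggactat
Atp5f1: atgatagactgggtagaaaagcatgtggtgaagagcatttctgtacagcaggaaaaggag

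Complex III passes electrons from ubiquinol to cytochrome c, and most of its 8 genes varied little. Uqcrb, a small subunit near the ubiquinone site, was the exception, with 4.66 in ZT12 ALDH-high against 3.45 in ZT12 ALDH-low cells, and 3.0 in ZT0 ALDH-high against 4.08 in ZT0 ALDH-low cells. Its differences were 1.20 and −1.08, and the probe printed above gave 1.68 and −1.38. Uqcr11, a small accessory subunit, differed by 0.65 and −0.91 and was the lowest of the complex for time in ALDH-low cells (−0.74). Uqcrh, the hinge protein, stayed within a range of 0.05 over the 4 arrays. The core proteins Uqcrc1 (0.32 and −0.51) and Uqcrc2 (0.17 and −0.33) followed the direction of Uqcrb, and the Rieske iron-sulphur protein Uqcrfs1 was at −0.11 and −0.30. A second Uqcrfs1 probe, on the opposite strand in the array files, gave 3.41 and −2.30. The median of the complex was 0.21 at ZT12 and −0.31 at ZT0.

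Complex IV reduces oxygen, and its nuclear subunits include forms that are restricted to certain tissues. The widest differences of any member were in this group. Cox7b2, a form of subunit 7b known from testis, had −0.93 in ZT12 ALDH-high against −4.22 in ZT12 ALDH-low cells, and −4.02 in ZT0 ALDH-high against −1.63 in ZT0 ALDH-low cells. The low values lay near the lowest signal well above background on their arrays, −4.93 in ZT12 ALDH-low and −4.49 in ZT0 ALDH-high cells. Its differences were 3.29 and −2.39. With a normexp background correction and quantile normalization they lay only 1.03 above and −0.57 below the median of all features, against 2.99 and −2.08 with the processing used here. In that setting Cox7b2 at ZT0 lay 0.08 above the median of the members, where it otherwise lay below. Cox7a1, the heart and muscle form of subunit 7a, was 0.78 in ZT12 ALDH-high against −0.28 in ZT12 ALDH-low cells, and −1.20 in ZT0 ALDH-high against 0.50 in ZT0 ALDH-low cells. Both genes were high on the ZT12 ALDH-high and ZT0 ALDH-low arrays.

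Ndufa4l2, a hypoxia-inducible relative of Ndufa4, had −2.44 in ZT12 ALDH-high against −4.15 in ZT12 ALDH-low cells. At ZT0 it was not well above background in ALDH-high cells, and was at least 2.22-fold lower there than in ALDH-low cells. In ALDH-high cells it was at least 3.53-fold higher at ZT12 than at ZT0. Such a bound sets the brighter array against the lowest signal well above background on the dim array or the dim value itself, whichever was higher. The other restricted forms differed less: Cox4i2, the lung form of subunit 4, by 0.94 and −0.14, Cox6b2, known from testis, by 0.49 and −0.01, and Cox6a2, the heart and muscle form of 6a, by 0.14 and 0.36. Cox6a2 was also the lowest member of the complex for time in ALDH-high cells (−0.70).

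The widely expressed forms of the same subunits gave values on both sides of 0. Cox7b differed by 0.76 and −0.86 and Ndufa4 by 0.25 and −1.0, in the direction of Cox7b2. Cox7a2 was at −0.11 and 0.10, Cox6b1 at −0.11 and 0.46, Cox8a at −0.09 and 0.39, and Cox6a1 at −0.03 and −0.04. Cox4i1, a core nuclear subunit, had 6.18 in ZT12 ALDH-high against 5.98 in ZT12 ALDH-low cells, and 5.98 in ZT0 ALDH-high against 6.20 in ZT0 ALDH-low cells, and Cox5a differed by 0.22 and −0.43. Cox7a2l, a factor that joins complexes III and IV into supercomplexes, ran the other way, at −0.54 and 0.46, and was the highest of the complex for time in ALDH-low cells (0.66). As a group the 6 measured restricted forms had medians of 1.0 and −0.65, beside −0.03 and −0.21 for the other 11. The sign of that distance held in 8 of 8 other settings that measured these genes at ZT12 but in only 4 of 8 at ZT0. Among these settings, array median scaling could not move it.

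Complex V, the ATP synthase, joins a catalytic F1 head to a membrane ring of c subunits. The 3 genes for the c subunit, Atp5g1, Atp5g2 and Atp5g3, had a median further from 0 than the 5 genes of F1. Atp5g2 had 5.53 in ZT12 ALDH-high against 4.68 in ZT12 ALDH-low cells, and 4.05 in ZT0 ALDH-high against 5.45 in ZT0 ALDH-low cells. Atp5g3 had 5.33 against 5.03 at ZT12 and 4.51 against 5.34 at ZT0, and Atp5g1 6.75 against 5.19 and 5.78 against 6.51, ALDH-high first. All 3 were higher in ALDH-high cells at ZT12 and lower at ZT0 (with array median scaling, 1 of 3 higher at ZT12 and 3 of 3 lower at ZT0), and Atp5g1 was the highest member of the complex at ZT12 (1.56) and Atp5g2 the lowest at ZT0 (−1.40). The other 2 Atp5g1 probes gave 0.95 and −1.69, and 0.90 and −1.78. The last of these shares 20 bases with probes of 9 other names. The probe used for Atp5g1 shares a run of 14 bases with probes of 12 other names.

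The median of the F1 genes was 0.00 at ZT12 and −0.21 at ZT0. Atp5b, the catalytic beta subunit, was 5.93 in ZT12 ALDH-high against 6.11 in ZT12 ALDH-low cells, and 5.74 in ZT0 ALDH-high against 6.17 in ZT0 ALDH-low cells. Its partner Atp5a1 differed by −0.18 and −0.46 and the central stalk gene Atp5c1 by 0.00 and −0.20. Atp5e, the epsilon subunit, stood apart at ZT12, with 0.63 and 0.05. The c genes had a median 0.84 above that of F1 at ZT12 and 0.61 below it at ZT0 (−0.61), with the same signs in 9 of 9 other settings. Of these, array median scaling, the changes of background filter and the limit on mean level could not move the distance. Among the remaining genes, Atp5o, of the stalk that holds F1 still, differed by 0.75 and −1.01. Atp5f1, of the same stalk, ran the other way (−0.36 and 0.53, the highest of the complex at ZT0), as did Atp5l (−0.11 and 0.42), the highest for time in ALDH-low cells at 0.31. Atp5sl, a gene named after Atp5s and counted in this complex by its name, was the lowest at ZT12 (−0.54). For time in ALDH-high cells Atp5g2 was the highest (1.48) and Atp5f1 the lowest (−0.61), and in ALDH-low cells Atp5g1 was the lowest (−1.32). Atp5s itself was at least 1.5-fold lower in ALDH-high than in ALDH-low cells at ZT0, and at ZT12 no fold could be given.

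**Figure D3:**
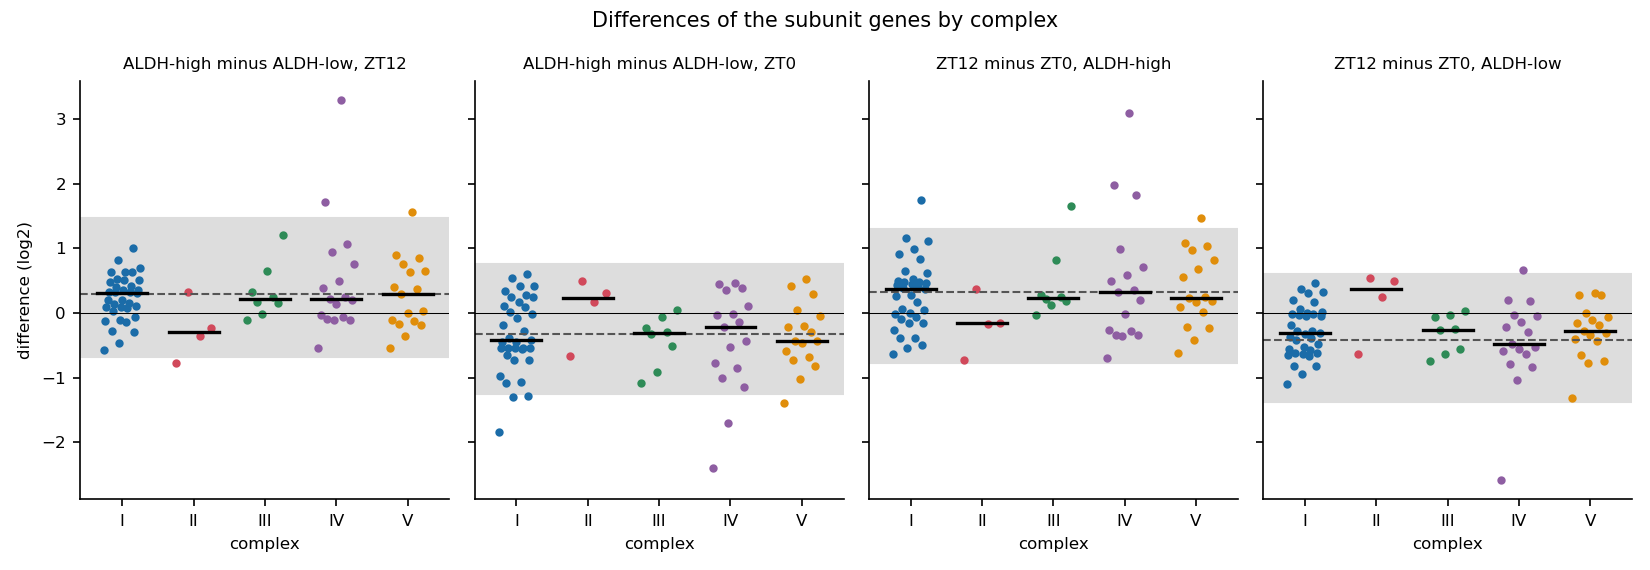
Difference (y axis, log2) of each subunit gene in the 4 comparisons, by complex (x axis), with black bars at the medians. The dashed line and grey band are the median and the middle 50% of all features. With this scaling the median of complex II lies on the other side of 0 from those of the other complexes in each panel, and most members lie inside the grey band.

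The 5 complexes overlapped. At ZT12 their medians were 0.31 for complex I, −0.29 for II, 0.21 for III, 0.22 for IV and 0.30 for V. At ZT0 they were −0.42 for complex I, 0.24 for II, −0.31 for III, −0.21 for IV and −0.43 for V. The distance between complex II and the others was within the spread of single genes of complexes I, IV and V, and rests on 4 genes, 1 of which lay with the other complexes. Members higher on both 1_1 arrays were 21 of 35 in complex I, 1 of 4 in II, 6 of 8 in III, 9 of 17 in IV and 10 of 17 in V, beside 47.9% of all features. With array median scaling they were 1 of 35, 0 of 4, 0 of 8, 2 of 17 and 1 of 17.

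The mitochondrially encoded subunits of the same complexes differed far more than the nuclear ones. Of the 13, 11 were on the array under a name that could be matched, and all 11 were well above background on all 4 arrays. CYTB, the cytochrome b of complex III, had 8.79 in ZT12 ALDH-high against 7.35 in ZT12 ALDH-low cells, and 6.93 in ZT0 ALDH-high against 9.47 in ZT0 ALDH-low cells. ND1, of the ubiquinone site of complex I, had 5.41 against 3.73 at ZT12 and 2.80 against 6.33 at ZT0, ALDH-high first, and ND2, of the membrane arm of complex I, 8.69 against 5.74 and 5.22 against 8.66. ATP8, of the ATP synthase, had 7.59 against 5.19 and 4.4 against 7.58. Like the other 7, they were higher on both 1_1 arrays than on both 1_2 arrays, as were 47.9% of all features. At ZT12 11 of 11 were higher in ALDH-high cells by 2-fold or more, against 32.2% of all features, with a median of 1.68 between 1.18 (COX1) and 2.95 (ND2). That count was 5 with array median scaling (median 0.81), against 20.2% of all features, and 8 with quantile normalization (median 1.82), against 26.1%. In both, 11 of 11 were above 0. At ZT0 10 of 11 were lower by 2-fold or more, against 31.5% of all features, with a median of −3.17 between −3.53 (ND1) and −0.83 (COX2).

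The median of the mitochondrially encoded subunits stood 1.46 above that of the nuclear members at ZT12 and 2.84 below it at ZT0 (−2.84). Over 9 other settings the distance ran between 1.26 and 1.69 at ZT12 and between −2.87 and −2.37 at ZT0. For time it was 2.36 in ALDH-high and −1.95 in ALDH-low cells. The epithelial, red cell, T and NK cell, B cell and macrophage markers given above were mostly high on the same arrays, and their part in the difference was not tested. The probes cannot tell mitochondrial transcripts from any nuclear copy of the same sequence.

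**Figure D4:**
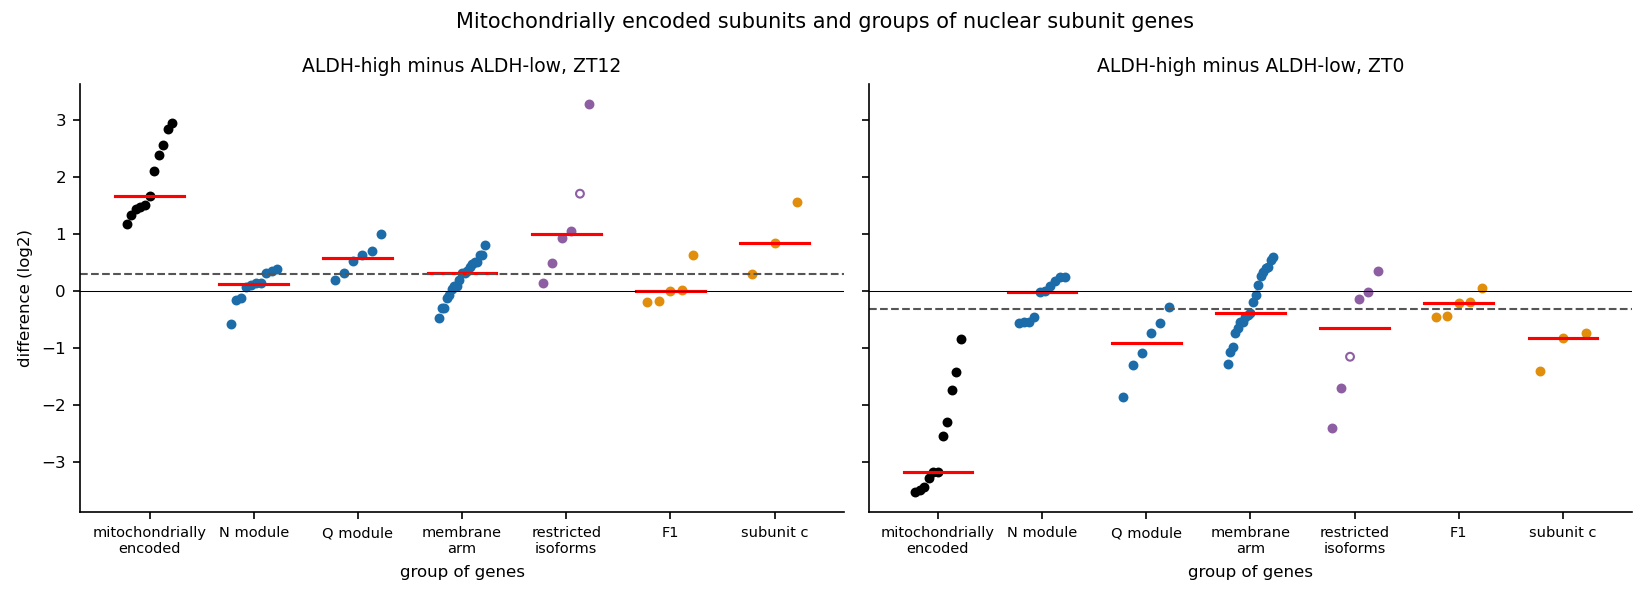
Difference between ALDH-high and ALDH-low cells (y axis, log2) at ZT12 and at ZT0 for the mitochondrially encoded subunits and groups of nuclear subunit genes (x axis), 1 point per gene, red bars at medians, dashed line at the median of all features. Open points mark a gene not well above background on all 4 arrays. The mitochondrially encoded genes reach 2.95 at ZT12 and −3.53 at ZT0, and the medians of the Q module and subunit c genes lie further from 0 than those of the N module and F1 genes.

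Beyond the subunits, lists of assembly factors, carriers, enzymes and regulators were counted in the same way, beside 32.2% of all features higher and 17.9% lower at ZT12 and 20.5% higher and 31.5% lower at ZT0. Of 14 assembly factors of complex I, 2 were at least 2-fold higher in ALDH-high cells at ZT12 and 0 lower, and 1 was higher and 5 lower at ZT0. Ecsit, a complex I assembly factor that also acts in immune signalling, gave 1.5 and −2.03, and by the mean over both times Timmdc1 was highest (0.65 and 0.28) and Ndufaf2 lowest (0.67 and −1.72). Of 9 measured assembly factors of complexes II and III, 1 was higher and 0 lower at ZT12, and 1 higher and 5 lower at ZT0, with Ttc19 lowest on the mean (−0.58 and −1.22). Lyrm7, highest on the mean, was not well above background in ZT12 ALDH-low and ZT0 ALDH-high cells, so that it was at least 3.55-fold higher in ALDH-high cells at ZT12 and at least 2.45-fold lower at ZT0. Sdhaf2, which adds FAD to Sdha, gave −0.89 and 1.24, the direction of Sdha. Of 20 for complex IV, 0 were 2-fold different at ZT12, and 2 were higher and 5 lower at ZT0, with Cox17, a copper chaperone, highest on the mean (0.81 and 0.27) and Fastkd2 lowest (0.30 and −1.99). Among the 3 genes for ATP synthase assembly and inhibition, Atpaf2 was at −0.12 and −0.15, and Atpaf1 at 0.63 and −1.08.

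Of the subunits that the name rule leaves out, 2 were listed, and both followed the main direction. Ndufab1, the acyl carrier protein of complex I, differed by 0.88 and −1.37, and Cyc1, cytochrome c1 of complex III, by 0.27 and −0.51. Of 16 genes for cytochrome c, carriers and ubiquinone synthesis, 0 were 2-fold different at ZT12, and 1 was higher and 3 lower at ZT0, with Coq4 highest on the mean (−0.83 and 1.29) and Slc25a4, the muscle form of the ADP/ATP carrier, lowest (0.48 and −2.37). Cycs, cytochrome c, was at −0.02 and −0.14. Of 13 citric acid cycle genes, 0 were 2-fold different at ZT12, and 1 was higher and 3 lower at ZT0. Mdh2 was highest on the mean (−0.72 and 1.16) and Idh3a lowest (0.28 and −1.74). The list had a median of −0.29 at ZT12, as complex II did, but −0.10 at ZT0.

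Regulators of mitochondrial gene expression lay in both directions: of 14, 1 was higher and 5 lower by 2-fold or more in ALDH-high cells at ZT12, and 4 were higher and 4 lower at ZT0. Nrf1, which binds the promoters of many subunit genes, had −0.04 in ZT12 ALDH-high against 1.73 in ZT12 ALDH-low cells, and 1.56 in ZT0 ALDH-high against 0.06 in ZT0 ALDH-low cells. Gabpb1, a subunit of the ETS factor GABP, differed by −1.56 and 1.82, and Esrra by −0.94 and 1.37. These 3 were low on the 1_1 arrays, as were 6 of the 14 in all (all features 32.4%), while the other 8 were high there (all features 47.9%). Ppargc1a, the coactivator PGC-1alpha, was highest on the mean: it was not well above background in ZT12 ALDH-low cells and at least 5.65-fold higher in ALDH-high cells at ZT12, and differed by −0.52 at ZT0. Pprc1, a related coactivator, was lowest (0.02 and −1.45). Tfam, which packages mitochondrial DNA, gave 0.23 and −0.95.

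The promoters of 64 members were found in the RefSeq table for GRCm38.p6. In the 250 bases before the start, the NRF1 motif (GCGC, any 2 bases, GCGC) was present in 13 of them (20.3%), against 5.09% of all 27025 promoters. The ETS motif CCGGAAG was in 11 (17.2%; all 7.05%), the E-box CACGTG in 5 (7.81%; all 6.05%), the ERRA motif TCAAGGTCA in 1 (1.56%; all 0.37%) and the YY1 motif AAGATGGCG in 0 (all 0.61%). Both strands were searched. By complex, the NRF1 motif was in 7 of 31 promoters of complex I, 2 of 3 of complex II, 0 of 5 of complex III, 1 of 12 of complex IV and 3 of 13 of complex V. The last 150 bases before the start are shown for Sdha and the 3 subunit c genes, which had opposite signs with 75th percentile scaling, and for Cox7b2, with the widest difference. Capitals mark the motifs, which do not overlap there: 3 NRF1 motifs in Sdha (chr13:74350241-74350390), an E-box in Atp5g1 (chr11:96075632-96075781), an NRF1 motif in Atp5g2 (chr15:102671048-102671197), an ERRA motif in Atp5g3 (chr2:73911327-73911476) and none in Cox7b2 (chr5:71548206-71548355), all on the minus strand. A match is a string of letters and not a measured site.
Sdha: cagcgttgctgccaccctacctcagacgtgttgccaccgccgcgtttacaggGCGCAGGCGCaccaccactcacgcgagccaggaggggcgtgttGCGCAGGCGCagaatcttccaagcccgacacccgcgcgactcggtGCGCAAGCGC
Atp5g1: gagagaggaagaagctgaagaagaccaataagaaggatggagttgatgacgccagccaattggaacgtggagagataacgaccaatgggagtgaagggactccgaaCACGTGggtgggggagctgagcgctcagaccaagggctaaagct
Atp5g2: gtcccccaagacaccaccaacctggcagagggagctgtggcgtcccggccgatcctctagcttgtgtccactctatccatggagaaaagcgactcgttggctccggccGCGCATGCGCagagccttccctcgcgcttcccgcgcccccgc
Atp5g3: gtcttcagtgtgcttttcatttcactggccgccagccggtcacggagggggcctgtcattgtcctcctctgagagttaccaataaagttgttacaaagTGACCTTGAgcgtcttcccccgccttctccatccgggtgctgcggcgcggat
Cox7b2: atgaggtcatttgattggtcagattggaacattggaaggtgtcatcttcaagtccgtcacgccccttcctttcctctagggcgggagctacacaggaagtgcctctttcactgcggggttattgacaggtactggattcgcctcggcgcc

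Whether any member differed by ALDH arm or by time over the 4 arrays was asked with an additive fit in limma, which has 1 residual degree of freedom. For ALDH 0 of 81 members were called at an adjusted p under 0.05 (0% of all features), and 0 reached an unadjusted p under 0.05, as 7 of all features did. For time the counts were 0 members called (0% of all features) and 0 members and 2 features at an unadjusted p under 0.05. The fit took 1 variance for all features, so the SE of a difference was 1.54 log2 units for every member. Mean ALDH differences of the members lay between −0.42 and 0.45, so this fit could not detect differences of that size. Its residual is the ALDH by time difference, which cannot be told apart from array position. With position in place of time the median SE over all features was 0.296, and 0 members were called. Members at least 2-fold different in the same direction at both times numbered 0, against 0.523% of all features, and 5 were at least 2-fold different in opposite directions, against 35.4%.

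Several probes bear on how far single genes can be read. Of the 81 members, 29 had more than 1 probe past the filter, and in 7 of them the probes disagreed in sign at ZT12, in 4 at ZT0. In 7 of the 29 a second probe lay at least 1 log2 unit from the one used at either time. The chosen probes of 5 members share 20 bases with a probe of another name, so related copies could add to their signal.

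**Figure D5:**
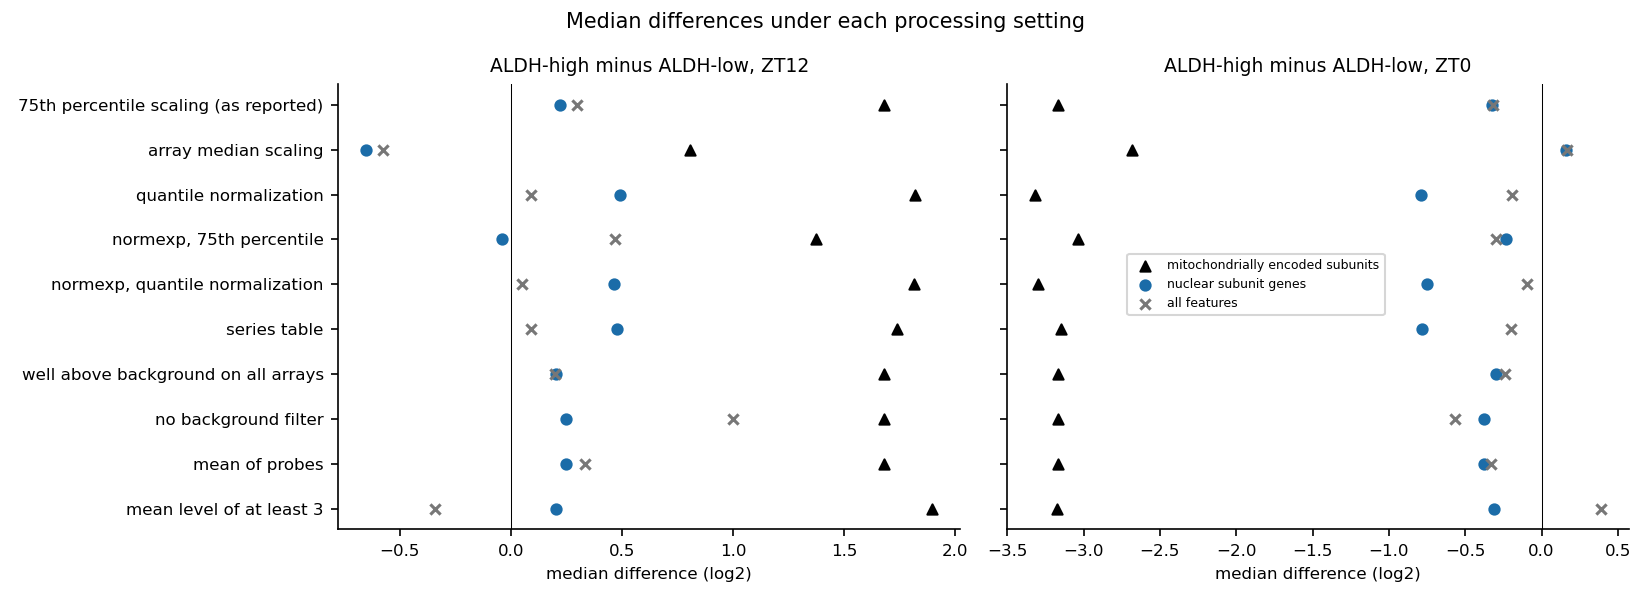
Median difference between ALDH-high and ALDH-low cells (x axis, log2) at ZT12 and at ZT0 under each processing setting (y axis) for the mitochondrially encoded subunits, the nuclear subunit genes and all features. The nuclear genes change side of 0 with the scaling, at ZT12 also with normexp correction and the 75th percentile, while the mitochondrially encoded subunits stay above 0 at ZT12 and below 0 at ZT0.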

How the data were processed

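RNA of 4 sorted samples, 1 array each, was hybridised to one-colour arrays (Cy3, per the labels' protocols). Per the file headers, Agilent Feature Extraction 10.7.1.1 read the scans; version 9.5.1.1 stands in the submitters' processing notes. The deposited processed signal is a linear intensity from which background was subtracted on each array, per the file headers, with no normalization between arrays. The authors' deposited series table, also linear intensity, is quantile normalized and served as an alternative. Control spots were left out, and outlier spots too unless every spot of the probe was an outlier. Replicate spots were averaged and the 75th percentile of each array (156 in ZT12 ALDH-high, 459 in ZT12 ALDH-low, 301 in ZT0 ALDH-high, 214 in ZT0 ALDH-low cells) was subtracted on the log2 scale. That percentile was taken over all spots other than controls, outliers included. The filter (2 or more arrays well above background) kept 34574 of 56605 probes. Between 55.8% and 60.6% of spots were well above background and 0 were saturated. The median SD of replicate spots was at most 0.0446 log2 units, which limits precision within an array only.

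With 1 array per group, differences are descriptions with no p. limma 3.58.1 in R 4.3.3 gave the additive fit (ALDH arm and time, two-sided, Benjamini-Hochberg over all features), tested on simulated data. Python 3.11.15 did the rest. Ndufa4 and Ndufa4l2 were counted in complex IV and modules assigned by hand. The 15 lists of pathway and marker genes hold 171 genes, of which 169 were on the array and 164 were measured, 12 through an older name. Genes named are the core subunits, the restricted isoforms and their common forms, the extremes of each complex per comparison and of each list. Members, lists and rules were chosen with earlier results of these data known. Among the pathway genes, those named beyond the list extremes (Ecsit, Sdhaf2, Cycs, Nrf1, Gabpb1, Esrra, Tfam, CYTB, ATP8, ND2, COX1), and among the members Ndufa6, Ndufa9 and Atp5o, were chosen after their values were seen. A gene that the rule for named genes selects is not reported here.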

Additional observations from a re-analysis of the deposited data

Results flagged for a closer look

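Several results took opposite directions at the 2 times, with 1 array on each side, and the difference between the times was not tested. The ALDH difference at ZT12 minus that at ZT0 was 5.68 log2 units for Cox7b2, 2.85 for Ndufa5, 2.77 for Cox7a1 and 2.29 for Uqcrb, each positive at ZT12 and negative at ZT0. For the medians of the complexes it was 0.73 for complex I, −0.53 for complex II, 0.52 for complex III, 0.44 for complex IV and 0.73 for complex V. With array median scaling the medians of all 5 complexes were below 0 at ZT12 and above 0 at ZT0. Of all features, 84.2% also changed sign between the times, so the change of sign is not particular to these genes. The same contrast sets the arrays at position 1_1 against those at position 1_2, and the ALDH by time difference and array position cannot be told apart.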

How the results depend on the processing

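No paired analysis was possible because each group has 1 array, so no replicate numbers could pair arrays; the additive fit compares the ALDH arms within each time. The limits are 4 arrays without replicates, cell mixtures that differ between them, and scaling. In the additive fit and the other fits of all 4 arrays 0 members were called (0 to 0). Some of these other fits held the ALDH arm alone or time alone. The leave-one-out fits also held only 1 of these terms and left 1 array in a group, so no count is given for them. In the order ALDH at ZT12, ALDH at ZT0, time in ALDH-high, time in ALDH-low, the members' median minus that of all features was −0.07, −0.01, −0.07 and 0.13 as reported. It became 0.40, −0.59, 0.43 and −0.36 with quantile normalization, 0.41, −0.65, 0.47 and −0.45 with normexp and quantile normalization, 0.39, −0.58, 0.44 and −0.33 in the series table, −0.51, 0.067, −0.39 and 0.35 with normexp and the 75th percentile, −0.75, 0.19, −0.56 and 0.62 without a background filter, and 0.54, −0.70, 0.57 and −0.60 for features of mean level at least 3, an alternative chosen after seeing the data. Requiring all 4 arrays above background gave 0.0083 for ALDH at ZT12, −0.0073 for time in ALDH-high and 0.027 for time in ALDH-low.

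Complex II minus the other members was −0.54, 0.62, −0.43 and 0.67 as reported and kept its sign throughout: −0.45, 0.47, −0.32 and 0.45 with quantile normalization, −0.42, 0.45, −0.30 and 0.44 with normexp and quantile normalization, −0.45, 0.46, −0.34 and 0.45 in the series table. It was 0.68 for ALDH at ZT0 and 0.76 for time in ALDH-low at mean level at least 3, and −0.50 in ALDH-high and 0.57 in ALDH-low for time with the mean of all probes. Placing Ndufa4 and Ndufa4l2 in complex I (also chosen after seeing the data) left it at −0.54, 0.62, −0.43 and 0.67.

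Counts of members at least 2-fold higher or lower moved with array median scaling to 1 higher and 13 lower (ALDH at ZT12), 3 and 3 (ALDH at ZT0), 5 and 6 (time in ALDH-high) and 14 and 1 (time in ALDH-low). Of all features, 20.2% and 38.8%, 30.0% and 20.2%, 19.8% and 31.3%, and 34.4% and 19.0% then did. Quantile normalization gave 10 higher, 29 lower, 22 higher and 25 lower, against 26.1%, 29.2%, 28.4% and 27.0% of all features. With normexp and quantile normalization there were 29 lower at ZT0, 19 higher for time in ALDH-high and 19 lower in ALDH-low (all features 17.0%, 16.2% and 14.1%). The authors' series values gave 28 lower, 22 higher and 23 lower for the same 3 (29.7%, 28.9% and 27.4%). Normexp with the 75th percentile gave 1 lower at ZT12, 6 lower at ZT0, 5 higher for time in ALDH-high and 2 lower in ALDH-low. The shares of all features were 14.5%, 16.5%, 18.9% and 25.7%. At mean level at least 3 there were 3 higher at ZT12, 7 lower at ZT0, 5 higher for time in ALDH-high and 2 lower in ALDH-low. The mean of all probes gave 1 higher at ZT0, against 19.9% of all features. Apart from the scalings, the causes of these moves were not tested.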
